A study of Mus musculus with 6 samples.

Results

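Cholesterol is built from acetyl-CoA in 3 stages, the mevalonate steps, the formation of squalene and lanosterol, and the conversion of lanosterol to cholesterol. Most of the enzymes are encoded by targets of SREBP-2, a transcription factor held in the endoplasmic reticulum together with its escort SCAP and the INSIG proteins while sterols are plentiful. When sterols fall short, SCAP carries SREBP-2 to the Golgi, where it is cut and its active part is freed to enter the nucleus and switch the genes on. The liver makes cholesterol for bile acids, bile and lipoproteins. The genes described here are the synthesis enzymes, the SREBP-2 machinery and a few genes of cholesterol transport and esterification, 28 in all, picked by name. A gene was represented by the probe set annotated to it alone that had the highest mean signal over the 6 arrays. Such a probe set was found for 25 of the 28 genes, out of 18193 genes represented in this way. No probe set was annotated to Acat2, Soat1 or Soat2 alone, and these genes were not analysed. None of the 25 genes lies on chromosome 12 (0 genes).

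The arrays compared the livers of male A/J mice with those of male A/J-12SM mice, a consomic strain that carries chromosome 12 of SM/J on the A/J background. Both strains had been fed a high-fat diet for 7 weeks, and no group on another diet was part of the arrays. Each strain was measured on 3 one-colour Affymetrix arrays, and each array held RNA combined from 3 mice, so the spread between arrays is a spread between pools. The labels of the arrays give no age. In pooled whole-liver RNA, fewer cells of a type and less RNA per cell cannot be told apart.

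The trimmed mean of the deposited signals was 201 to 213 on the A/J arrays and 171 to 186 on the A/J-12SM arrays, so the log2 signals were set to a common distribution by quantile normalization. All values below are log2 signals on that scale, and a difference is A/J-12SM minus A/J. The arrays correlated at 0.921 to 0.933 within a strain and at 0.922 to 0.930 between strains. All 10 hepatocyte markers were above the median brightness, with a median difference of -0.00. A/J-12SM replicate 3 stood apart from the other arrays in the genes described here. That array also had the lowest ratio of the 5′ to the 3′ actin probe set, a measure of RNA integrity, at 0.423. The actin ratio was 0.553 and 0.561 on the other A/J-12SM arrays and 0.571 to 0.590 on the A/J arrays. The Gapdh ratio of A/J-12SM replicate 3 was 1.53, within the range of 1.45 to 1.55 of the others. Its pyruvate carboxylase ratio of 0.218 was the lowest, against 0.241 to 0.302. The transferrin receptor ratio was lowest there as well, at 0.367, against 0.441 to 0.925. The part of RNA integrity in the results was not tested. Values without this array are given beside the differences that it moves most.

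The cholesterol genes were mostly lower in A/J-12SM livers, with 21 of the 25 having a lower mean than in A/J livers, where 50.9% of all genes and 50.6% of the genes at or above the median brightness did. The median difference was -0.28, and -0.01 over all genes. No member passed the limma test at an adjusted p below 0.05 (0 of 25, with 5 members at an unadjusted p below 0.05), and the lowest adjusted p was 0.589. Over all genes 0.066% passed, and over all probe sets 0.0555% (25 of 45037). The members below the unadjusted threshold were Hmgcs1, Lss, Dhcr7 and Insig2, which were lower (4 of 25, against 3.39% of all genes in that direction), and Npc1, which was higher (1 of 25, against 3.39%). The A/J-12SM arrays lay wholly below the A/J arrays for 4 members, Hmgcs1, Ebp, Dhcr7 and Insig2, as they did for 6.34% of all genes and 7.17% of those at or above the median brightness. They lay wholly above for 2 members, Scap and Npc1, and for 5.97% and 6.81% of genes. Without A/J-12SM replicate 3, 18 members were lower (49.8% of all genes) and the median difference was -0.09. In that fit 0 members passed the adjusted threshold (0.044% of all genes), 3 had an unadjusted p below 0.05 with a lower value (3.85%) and 2 with a higher value (3.06%). Members below the unadjusted threshold numbered 2 without A/J replicate 1 and 13 without A/J-12SM replicate 1, and 0 members passed the adjusted test in either case. With the actin ratio of each array as a covariate, 9 members were lower and the median difference was 0.03. That ratio was lower on every A/J-12SM array than on every A/J array, so this fit cannot separate it from strain. On the signals as deposited, where the median difference over all probe sets was -0.22, 16 members were below the unadjusted threshold. The share of all genes below it was counted only in the main fit and the fit without A/J-12SM replicate 3.

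**Figure D1:**
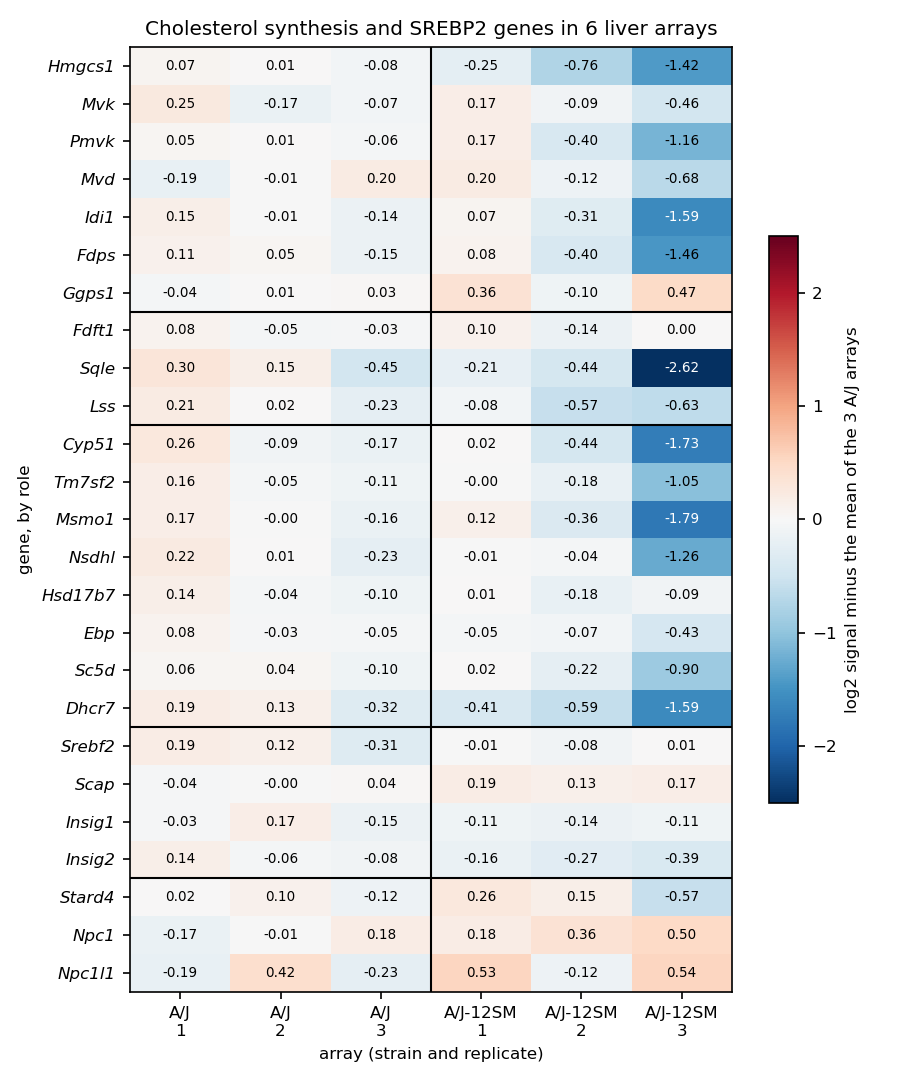
Log2 signal of each of the 25 cholesterol genes (rows, ordered by role) on each of the 6 arrays (columns), as the difference from that gene's mean over the A/J arrays. The column of A/J-12SM replicate 3 holds the lowest value of the row for 17 of the 25 genes.

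The map of all members by array shows that much of the difference came from 1 array. A/J-12SM replicate 3 had the lowest value of the 6 arrays for 17 of the 25 members, as it did for 22.7% of all genes and 25.3% of those at or above the median brightness. It was at least 1 log2 unit below the mean of the other A/J-12SM arrays for 8 members, all of them enzymes of the pathway, namely Pmvk, Idi1, Fdps, Sqle, Cyp51, Msmo1, Nsdhl and Dhcr7. Among all genes at or above the median brightness, 1.17% were that far below on this array. The median distance of this array from its 2 companions was -0.72 over the members and 0.00 over all genes. The histogram of this distance shows where the members lie among the brighter genes, with Sqle the farthest at -2.29.

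The enzymes of the mevalonate steps were lower in 6 of 7 cases, with a median difference of -0.46. Without A/J-12SM replicate 3 they were lower in 4 of 7 cases, with a median of -0.12. Hmgcs1, at chr13:119690351-119708260 in GRCm38.p6, encodes the cytosolic HMG-CoA synthase that makes HMG-CoA. Its log2 signals were 12.71, 12.64 and 12.56 on the A/J arrays, against 12.39, 11.88 and 11.22 on the A/J-12SM arrays. All A/J-12SM values lay below all A/J values, at means of 12.64 ± 0.07 and 11.83 ± 0.59 (SD, n = 3 arrays each). The difference was -0.81 with an SE of 0.23, or 0.570 times the A/J level (limma, unadjusted p = 0.00602, adjusted p = 0.589; exact two-sided permutation p = 0.1, the smallest that 3 against 3 arrays can give). Without A/J-12SM replicate 3 it was -0.50 (limma, unadjusted p = 0.00421, adjusted p = 0.492). The 3 other probe sets of Hmgcs1 above the median brightness gave differences of -0.82, -0.86 and -0.96.

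Idi1 encodes the isomerase that converts isopentenyl diphosphate. It had 10.79, 10.64 and 10.50 in A/J, against 10.71, 10.34 and 9.05 in A/J-12SM, a difference of -0.61 that was -0.12 without replicate 3. Fdps, the farnesyl diphosphate synthase, had 11.46, 11.40 and 11.20 against 11.43, 10.95 and 9.89, with differences of -0.59 and -0.16. In both genes A/J-12SM replicate 1 lay within the range of the A/J arrays and replicate 3 more than 1 unit below every other array. Pmvk, the phosphomevalonate kinase, had 8.88, 8.85 and 8.78 in A/J, against 8.9997, 8.44 and 7.68 in A/J-12SM, so its A/J-12SM arrays lay on both sides of A/J. Its difference was -0.46, and -0.12 without replicate 3. The differences were smaller for Mvk, the mevalonate kinase, at -0.12, and for Mvd, the decarboxylase that forms isopentenyl diphosphate, at -0.20, and without replicate 3 both were 0.04. Ggps1, which directs the pathway to geranylgeranyl diphosphate instead of sterols, was the exception on its chosen probe set. Its difference was 0.24, and 0.13 without replicate 3. The other bright probe sets of Ggps1 gave 0.11, 0.02 and -0.27.

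The 3 enzymes that form squalene and lanosterol were all lower, with a median difference of -0.42 that was -0.32 without replicate 3. Sqle, at chr15:59315092-59331193, encodes squalene epoxidase, a rate-limiting enzyme of the later pathway, and had the largest difference of all members. Its values were 8.88, 8.74 and 8.14 in A/J, against 8.38, 8.14 and 5.97 in A/J-12SM. The deposited signal of A/J-12SM replicate 3 was 56.0, against 276 to 523 on the other arrays. The difference of -1.09 (SE 0.53; limma, unadjusted p = 0.0658, adjusted p = 0.817) was -0.32 without this array, and the other A/J-12SM arrays overlapped with A/J. Lss, the lanosterol synthase, had 8.69, 8.50 and 8.25 against 8.41, 7.91 and 7.86. Its difference of -0.42 (limma, unadjusted p = 0.0338, adjusted p = 0.784) depended less on replicate 3, being -0.32 without it. The other bright probe set of Lss gave a smaller difference of -0.20, and -0.14 without replicate 3. Fdft1, the squalene synthase, had 10.98, 10.85 and 10.88 against 11.01, 10.76 and 10.91, a difference of -0.01. Its probe sets differed in this respect, since the other bright one gave -0.30, with 9.31 on replicate 3 against 9.79 to 10.03 on the other arrays.

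All 8 enzymes that turn lanosterol into cholesterol had lower means in A/J-12SM livers (8 of 8, median difference -0.42). Without A/J-12SM replicate 3 all 8 were still lower, with a median of -0.10. Dhcr7, at chr7:143823167-143848410, encodes the reductase of the final step. It had 9.55, 9.49 and 9.03 in A/J, against 8.95, 8.77 and 7.77 in A/J-12SM, with no overlap. The difference was -0.86 with an SE of 0.27, or 0.550 times the A/J level (limma, unadjusted p = 0.0107, adjusted p = 0.654), and -0.50 without replicate 3 (limma, unadjusted p = 0.0109). Cyp51 encodes the lanosterol demethylase. It had 9.45, 9.10 and 9.02 against 9.21, 8.75 and 7.45, a difference of -0.72 with replicate 3 and -0.21 without it.

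Msmo1 and Nsdhl act in turn in removing methyl groups from the sterol ring. Msmo1 had 11.21, 11.04 and 10.88 in A/J, against 11.16, 10.68 and 9.25 in A/J-12SM, and Nsdhl had 10.80, 10.59 and 10.35 against 10.57, 10.54 and 9.32. In both genes replicates 1 and 2 of A/J-12SM overlapped with or lay close to the A/J arrays, and the differences of -0.68 and -0.44 were -0.12 and -0.03 without replicate 3. The remaining differences were -0.41 for the sterol reductase Tm7sf2, -0.37 for the desaturase Sc5d, -0.18 for the isomerase Ebp and -0.09 for the ketoreductase Hsd17b7. Without replicate 3 these differences were -0.09, -0.10, -0.06 and -0.08. Ebp kept its groups apart only narrowly, with 12.30 as both its lowest A/J value and its highest A/J-12SM value after rounding. The 3 other bright probe sets of Hsd17b7 gave -0.31, -0.35 and -0.18, and -0.08, -0.16 and -0.20 without replicate 3.

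**Figure D2:**
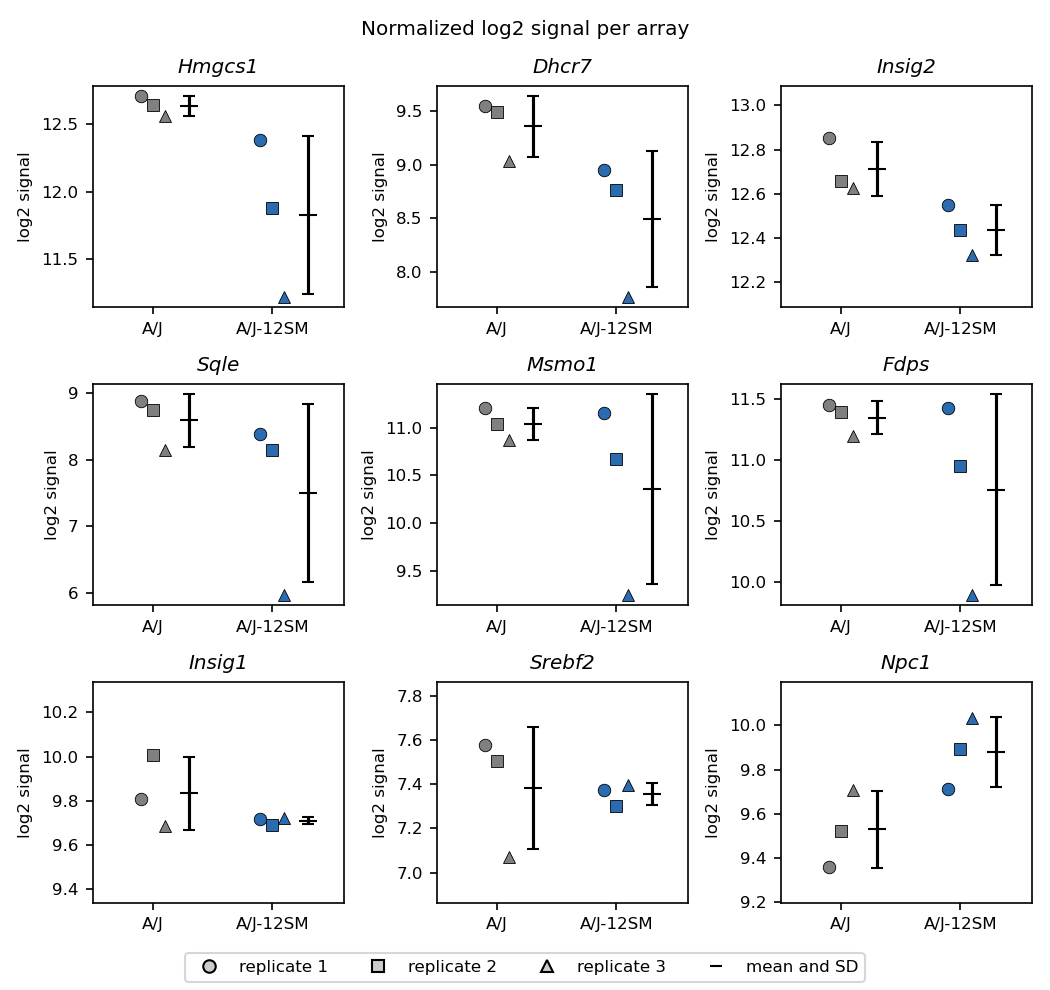
Log2 signal of the members described in most detail, each in its own panel with its own vertical range, for the A/J and A/J-12SM arrays. Points are arrays, lines are means ± SD (n = 3), and for Sqle the lowest A/J-12SM array lies at 5.97 against 8.14 to 8.88 for the other arrays.

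Over all 18 measured synthesis enzymes, 17 were lower with a median difference of -0.43, and 15 were lower with a median of -0.11 without A/J-12SM replicate 3. Their mean, centred for each enzyme over the 6 arrays, was 0.34, 0.22 and 0.09 on the A/J arrays, against 0.23, -0.08 and -0.80 on the A/J-12SM arrays. In this mean replicate 3 was the lowest array, while replicate 1 of A/J-12SM lay inside the A/J range. On the chosen probe sets replicate 3 was the lowest array for 15 of the 18 enzymes. The exceptions were Ggps1, which was highest on it, Fdft1 and Hsd17b7. These exceptions depended on the probe set. Replicate 3 was lowest on the other bright probe set of Fdft1 (9.31). It was also lowest on bright probe sets of Hsd17b7 (8.53 and 8.42) and Ggps1 (5.89 and 6.32). On another of Hsd17b7 (5.71) and another of Ggps1 (6.96) it was not. The plot of differences with and without that array shows how far each gene moved. Without it Hmgcs1 and Dhcr7 were both at -0.50 and Lss at -0.32, while Sqle moved from -1.09 to -0.32 (limma, unadjusted p = 0.151, adjusted p = 0.874).

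**Figure D3:**
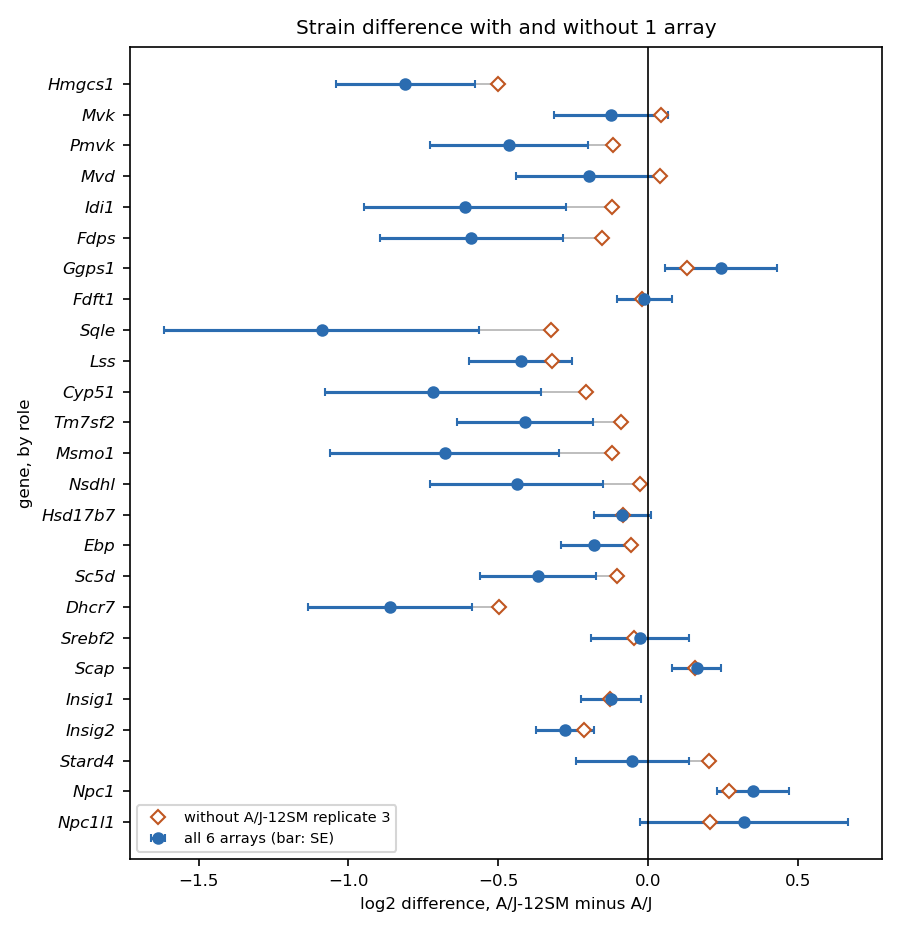
Difference in log2 signal, A/J-12SM minus A/J, for each of the 25 genes over all 6 arrays and without A/J-12SM replicate 3. The median over the genes is -0.28 with all arrays and -0.09 without that replicate.

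**Figure D4:**
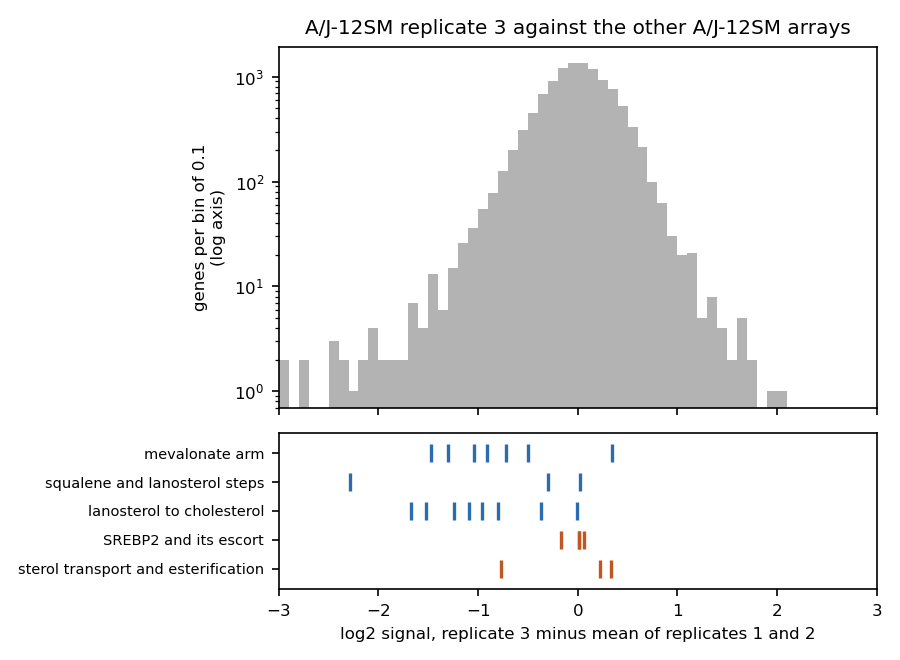
Distance of A/J-12SM replicate 3 from the mean of the other 2 A/J-12SM arrays (log2 units) for all genes at or above the median brightness, with the members marked. The genes centre at 0.00, and 8 members lie at or below -1.

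The promoters of the members were read from RefSeq (GRCm38.p6) in a window from 250 bases before to 50 bases after each transcription start. A window was used for 20 of the 25 members (26 windows). Sqle, Fdps, Fdft1, Stard4 and Npc1 had no window used here and are not in the counts below. SREBP-2 binds sterol regulatory elements and acts together with NF-Y, which binds CCAAT boxes, and with Sp1, which binds GC boxes. CCAAT was found on either strand in 19 of the 26 windows (73.1%), against 37.4% of all 32851 windows, and in 19 of the 20 genes (95.0%), Scap being the exception. By gene, 41.1% of all genes and 42.6% of those at or above the median brightness held it in a window. GGGCGG, the GC box, was in 76.9% of the member windows and 35.7% of all. The core of the sterol element, searched as CACNCCAC on both strands, was in the windows of Hmgcs1 and Insig1 (7.69% against 6.24%). CACGTG, an E-box, was in 23.1% against 7.15%. A match is a description of the letters and not a binding site, and nothing was measured at these promoters here.

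The 250 bases before the start are shown for Hmgcs1, whose groups did not overlap, for Idi1 and Msmo1, which were far lower on replicate 3, and for Insig1, a target gene that was not. Capitals mark CCAAT (or ATTGG, its reverse complement) and the sterol element core on either strand, and each sequence runs 5′ to 3′ on the strand of the gene. The positions are chr13:119690101-119690350 (plus strand) for Hmgcs1, chr13:8885356-8885605 (plus) for Idi1, chr8:64733579-64733828 (minus) for Msmo1 and chr5:28071162-28071411 (plus) for Insig1.
Hmgcs1: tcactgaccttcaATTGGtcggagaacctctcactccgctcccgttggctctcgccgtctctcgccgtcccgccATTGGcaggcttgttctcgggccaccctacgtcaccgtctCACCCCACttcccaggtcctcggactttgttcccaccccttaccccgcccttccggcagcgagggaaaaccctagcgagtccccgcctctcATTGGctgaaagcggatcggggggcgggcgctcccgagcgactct
Idi1: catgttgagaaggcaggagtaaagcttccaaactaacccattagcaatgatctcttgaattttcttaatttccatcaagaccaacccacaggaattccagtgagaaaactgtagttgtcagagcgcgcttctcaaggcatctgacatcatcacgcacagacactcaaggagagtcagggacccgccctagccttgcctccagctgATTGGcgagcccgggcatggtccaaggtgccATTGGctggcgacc
Msmo1: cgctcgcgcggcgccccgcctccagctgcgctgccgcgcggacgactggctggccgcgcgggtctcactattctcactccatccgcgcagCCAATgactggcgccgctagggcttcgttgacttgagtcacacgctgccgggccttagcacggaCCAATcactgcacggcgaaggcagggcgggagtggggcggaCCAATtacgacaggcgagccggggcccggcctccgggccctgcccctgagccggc
Insig1: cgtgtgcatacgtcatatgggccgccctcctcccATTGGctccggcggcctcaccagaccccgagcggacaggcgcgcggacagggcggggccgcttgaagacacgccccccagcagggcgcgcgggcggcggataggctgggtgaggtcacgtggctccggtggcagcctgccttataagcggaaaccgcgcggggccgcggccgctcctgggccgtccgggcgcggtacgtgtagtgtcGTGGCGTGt
Hmgcs1 held CCAAT 3 times in the stretch shown, with the sterol core 35 bases from the nearest. Idi1 held it 2 times close to the start and Msmo1 3 times, both without a match to the core. Insig1 held 1 CCAAT and a core match near the start.

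Of the 4 genes of the SREBP-2 machinery 3 were lower, with a median difference of -0.07, and replicate 3 was at least 1 unit below its companions for none of their chosen probe sets. Srebf2, which encodes SREBP-2 itself, had 7.58, 7.50 and 7.07 in A/J, against 7.37, 7.30 and 7.40 in A/J-12SM, a difference of -0.03 with replicate 3 among the higher arrays. Its second probe set gave another picture, with 7.19, 6.87 and 7.13 against 6.66, 6.71 and 5.63, a difference of -0.73 without overlap (limma, unadjusted p = 0.0283, adjusted p = 0.765). On that probe set replicate 3 lay well below its companions, and the difference was -0.38 without it. The 2 probe sets thus gave no single value for Srebf2.

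Insig1 and Insig2 encode the proteins that retain SCAP and SREBP-2 in the endoplasmic reticulum, and Insig1 is itself an SREBP-2 target. Insig1 had 9.81, 10.01 and 9.68 in A/J, against 9.72, 9.69 and 9.72 in A/J-12SM, so that all A/J-12SM arrays fell within the A/J range. Insig2 had 12.85, 12.66 and 12.63 against 12.55, 12.44 and 12.32. Its A/J-12SM arrays were all lower, by -0.28 (SE 0.10; limma, unadjusted p = 0.0175, adjusted p = 0.726), and by -0.22 without replicate 3. The other probe sets of Insig2 gave -0.44 and -0.48 (limma, unadjusted p = 0.00108 and 0.00278, adjusted p = 0.383 and 0.48), and here replicate 3 was not the lowest array. Scap had 9.70, 9.74 and 9.77 against 9.92, 9.86 and 9.91, higher by 0.16 without overlap (limma, adjusted p = 0.824). On the signals as deposited, where the median difference over all probe sets was -0.22, the difference was -0.05. The other bright probe set of Scap was higher by 0.49 without overlap (limma, adjusted p = 0.83), and by 0.43 without replicate 3.

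The 3 transport genes had a median difference of 0.32, and 1 of them was lower. Without replicate 3 the median was 0.21 and 0 were lower. Npc1, which exports cholesterol from lysosomes, had 9.36, 9.52 and 9.71 in A/J, against 9.71, 9.89 and 10.03 in A/J-12SM. It was higher by 0.35 (SE 0.12; limma, unadjusted p = 0.0153, adjusted p = 0.706), and by 0.27 without replicate 3, which had the highest value of the 6 arrays. Stard4, a carrier of sterols between membranes and an SREBP-2 target, had 10.39, 10.47 and 10.25 against 10.63, 10.51 and 9.80. Its difference was -0.05 over all arrays and 0.20 without replicate 3, the other A/J-12SM arrays being above A/J. Npc1l1, a sterol uptake transporter, was below the median brightness on its probe set, with a difference of 0.32, and 0.21 without replicate 3.

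A gene can be measured by several probe sets, which sample different stretches of its transcripts. Besides the chosen ones, 23 bright probe sets measured 13 of the members. Of these 20 were lower in A/J-12SM, with a median difference of -0.31, and 22 had the same direction as the chosen probe set of their gene.

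Other genes tied to the pathway were also examined, and 35 of 39 were measured. They had a median difference of -0.02, with 21 lower, 14 higher and 0 past the adjusted threshold (6 at an unadjusted p below 0.05, 4 lower and 2 higher). Without A/J-12SM replicate 3, 14 of 35 were lower, with a median of 0.02. Of 16 genes of further sterol steps and enzyme partners, 13 were lower with a median of -0.15, and replicate 3 was the lowest array for 11. Without it 11 were lower, with a median of -0.08. Among the measured ones Rdh11, a retinol dehydrogenase known as an SREBP target, lies on chromosome 12 and so came from SM/J in A/J-12SM by design. It had 9.45, 9.24 and 8.98 in A/J, against 8.93, 8.40 and 7.997 in A/J-12SM. The groups did not overlap, with a difference of -0.78 (limma, unadjusted p = 0.00475, adjusted p = 0.569) that was -0.56 without replicate 3. Cyb5r3, which passes electrons to sterol desaturation and demethylation, differed by -0.34 (limma, unadjusted p = 0.00515, adjusted p = 0.575). Of 8 genes for SREBP cleavage and sterol-regulated protein degradation, 2 were lower, with a median of 0.12. Of 11 genes of isoprenoid branches 6 were lower with a median of -0.00, and 2 were lower with a median of 0.06 without replicate 3. Syvn1, a ubiquitin ligase of the endoplasmic reticulum, had 8.72, 8.76 and 8.79 against 9.33, 8.998 and 9.38, higher by 0.48 (limma, unadjusted p = 0.00252, adjusted p = 0.466).

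Fatty acid synthesis is driven mainly by SREBP-1c and ChREBP, and cholesterol disposal by LXR. Of 18 measured lipogenic genes 14 were lower with a median difference of -0.19 (14 and -0.13 without replicate 3), and replicate 3 was at least 1 unit below its companions for 1 of them, Acacb, against the 8 cholesterol genes. Mlxipl, which encodes ChREBP, was higher by 0.34 (limma, unadjusted p = 0.00595, adjusted p = 0.589). Gpam and Fads2, enzymes of glycerolipid synthesis and of desaturation, differed by -0.26 and -0.52. Without replicate 3 the difference of Fads2 was -0.27, and that of Gpam was -0.26. The 13 LXR and disposal genes had a median difference of -0.00 with 7 lower, and 0.09 with 5 lower without replicate 3. Their smallest unadjusted p belonged to Abcb11, the bile salt export pump, at a difference of 0.32, followed by the sterol exporters Abca1 (0.23) and Abcg5 (0.25). The difference between these lists was not tested.

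**Figure D5:**
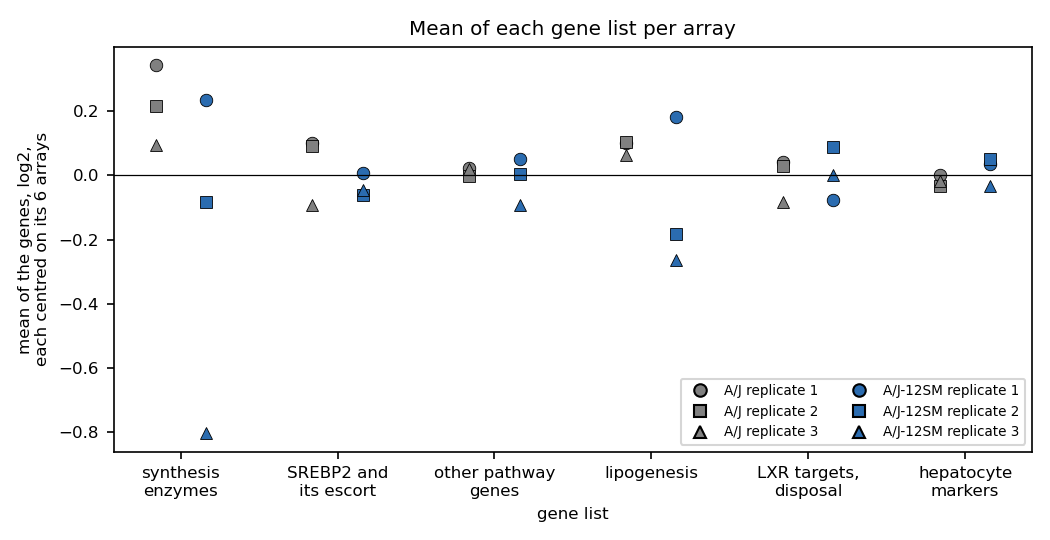
Mean centred log2 signal on each of the 6 arrays for the synthesis enzymes and the comparison lists of genes. The synthesis enzymes lie at -0.80 on A/J-12SM replicate 3 and between -0.08 and 0.34 on the other arrays.

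Markers of other liver cells were set beside these values. All 10 Kupffer cell and macrophage markers were lower in A/J-12SM, with a median difference of -0.27, and their mean log2 signal ranged from 8.82 to 9.10 in A/J and from 8.45 to 8.98 in A/J-12SM, with the lowest on replicate 3. Without it all 10 were lower, with a median of -0.19. Of 10 stellate cell markers 1 was lower, with a median of 0.03, and 5 were lower with a median of -0.02 without replicate 3. These markers were high on that array, where their mean, centred for each marker over the 6 arrays, was 0.31, against -0.12 to 0.03 on the others. Of the endothelial markers 4 of 8 were lower, with a median of 0.01. Above the median brightness were 1 of 5 bile duct markers, 3 of 6 T and B cell markers, 0 of 3 adipocyte markers and 1 of 4 pancreas markers. The part of the macrophage and stellate cell markers in the differences of the cholesterol genes was not tested.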

How the data were processed

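The authors processed the 6 arrays of liver RNA with MAS5, per the labels, and deposited 1 linear signal intensity for each probe set. The sources used here do not give the MAS5 version or its scaling target. The deposited intensity values were log2 transformed without an offset and quantile normalized. A/J-12SM was compared with A/J (3 arrays each) with limma (version 3.58.1, R version 4.3.3, lmFit, then eBayes with the trend option). Benjamini-Hochberg adjustment ran over the 45037 probe sets that are not controls. Of these, 34945 had 1 gene in the platform annotation, 932 several and 9160 none, and 34741 were matched to a current gene by identifier. The labels call the arrays biological replicates. With 3 arrays in a group, their number limits the precision.

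All members were named with their difference. Values on every array were given for members at or above the median brightness (log2 5.33) with the 4 largest differences of their role, and for the 4 genes of the SREBP-2 machinery. From each of the other pathway, lipogenesis and LXR lists the 3 genes with the smallest unadjusted p were named, and the 5 other genes whose pattern was most like the mean of the members; Acacb was named after its values were seen. The members and lists were chosen with earlier results of these data known. The fit was tested on simulated data. Other normalizations, offsets, filters, covariates, array weights, a t-test, a replicate block and leaving out each array were tried.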

Additional observations from a re-analysis of the deposited data

How the results depend on the processing

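No member passed the adjusted threshold in any of the 17 alternatives (0 of 25). The 5′ to 3′ actin ratio was lowest on A/J-12SM replicate 3, and lower on every A/J-12SM array than on every A/J array. As a covariate it therefore cannot be separated from strain. This covariate gave 9 members lower, a median of 0.0261, 2 members at an unadjusted p below 0.05 and 14 probe sets called, against 21, -0.28, 5 and 25. It turned the sign of Mvk (0.12), Pmvk (0.0233), Mvd (0.12), Idi1 (0.0937), Fdps (0.0274), Sqle (0.0261), Cyp51 (0.0161), Tm7sf2 (0.0531), Msmo1 (0.12), Nsdhl (0.17), Sc5d (0.0116), Stard4 (0.32), Etfa (0.0213), Plbd2 (0.079) and Akt1s1 (0.00731). The deposited values, with a median difference of -0.22 over all probe sets, gave 16 members at an unadjusted p below 0.05 and 47 probe sets, and Scap at -0.0499. A prior variance common to all probe sets gave 1 member and 1 probe set, and the methods' t-test 2 members and 1 probe set. The sign also turned with the mean over probe sets for Fdps (0.0421), with median centring for Fdft1 (0.0457), F2 (0.0717) and Etfa (0.0397), with the trimmed mean for Fdft1 (0.0149), F2 (0.041) and Etfa (0.00901), and with array weights for Stard4 (0.0312). Leaving out 1 array gave 2 to 13 members at an unadjusted p below 0.05, 6 to 23 probe sets, 18 to 21 members lower and medians from -0.40 to -0.09. Single differences that changed sign ranged over Mvk (-0.271 to 0.0415), Mvd (-0.397 to 0.0412), Fdft1 (-0.0698 to 0.0534), Srebf2 (-0.181 to 0.071) and Stard4 (-0.212 to 0.203). Correlations of deviations between arrays of equal number were weak, at -0.06, 0.09 and 0.16, and not every array correlated best with its own number. The mean of the synthesis enzymes, however, fell with rising array number within each strain. Among the A/J arrays it dropped from 0.34 through 0.22 to 0.09. Among the A/J-12SM arrays it dropped from 0.23 through -0.08 to -0.80. Not every enzyme had this order, since Mvd rose with the number in A/J. Whether arrays of equal number were paired in the experiment was not tested. With the replicate block 13 members had an unadjusted p below 0.05, 0 passed the adjusted threshold and 28 probe sets were called. The share of all genes below the unadjusted threshold was not counted in this fit. Among the alternatives it was counted only without A/J-12SM replicate 3. The causes were not tested.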

Other observations

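The array pattern of the cholesterol genes was set beside that of 11018 other genes at or above the median brightness. The highest Pearson correlations with the mean member pattern over the 6 arrays belonged to Zbtb42 (0.996), F2 (0.992), Etfa (0.990), Plbd2 (0.990) and Akt1s1 (0.989). Zbtb42 lies on chromosome 12, the SM/J chromosome of A/J-12SM. F2, whose values ranged from 13.41 to 13.64, encodes prothrombin, Etfa a subunit of the electron transfer flavoprotein and Akt1s1 an inhibitor of mTORC1. The values describe 6 arrays, 1 of which lay far from the others in these genes, and carry no test.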
